A study of Mus musculus with 6 samples.

Results

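The Timm and Tomm genes encode most subunits of the translocases that carry proteins into mitochondria. They were taken as every gene symbol that starts with Timm or Tomm followed by a digit, pseudogene names left out, which gave 26 of 35491 named entries. By the place of the protein, 10 were grouped with the outer membrane, 8 with the inner membrane and 7 with the chaperones of the intermembrane space. The outer membrane group includes Tomm34, although it is known as a cytosolic co-chaperone. The last entry, Tomm6os, is a transcript antisense to Tomm6. RNA was sequenced from gastrocnemius, a large muscle of the calf, in 6 chow-fed males aged 20 weeks. The 3 Ogg1Tg mice carry a transgene in which human OGG1-1a, the enzyme that removes oxidised guanine from DNA, is fused to a mitochondrial targeting signal and driven by a CMV/AG promoter. The 3 other mice are labelled by genotype only, as Control, and both groups are on a C57BL/6J background. The comparison asks whether transcripts of the import machinery differ when this repair enzyme is sent to mitochondria. The transgene is a human sequence, and its expression is not measured by the mouse genes analysed here.

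Nearly all mitochondrial proteins are made in the cytosol and must be imported. Receptors and a pore in the outer membrane form the TOM complex. Precursors then pass either to the TIM23 complex, which feeds proteins with a cleavable presequence into the matrix with the help of an ATP-driven motor, or, escorted by small Tim chaperones, to the TIM22 complex, which inserts carrier proteins into the inner membrane. Skeletal muscle depends on this traffic for its oxidative fibres.

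Values are scaled reads, that is, gene counts divided by 1 factor per library, and are given for replicates 1, 2 and 3 of each group in that order. Fold changes are Ogg1Tg minus Control on the log2(value + 1) scale from a limma model over all 23312 genes with a mean of at least 1. Reads in named genes came to 45189860 to 56126407 per library. Muscle fibre markers (Acta1, Ckm, Mylpf, Myh4, Tnnt3, Pvalb and Mb) were all present and summed to 4761946, 6736947 and 3398030 in Ogg1Tg muscle, against 7270238, 5885796 and 5237437 in Control muscle. Ogg1Tg replicate 3 stood apart, with a Spearman correlation across genes of 0.946 to 0.953 with the other libraries, against 0.975 to 0.983 among those. The 10 lymphocyte and neutrophil markers summed to 13953 in that library, to 222 and 237 in the other Ogg1Tg libraries and to 212 to 283 in Control. Among these, Cd3e, Cd3g, Ms4a1, S100a8 and S100a9 were each at 0 in at least 1 library. The 6 adipocyte markers summed to 10933 in Ogg1Tg replicate 3, against 3129 and 3436 in the other Ogg1Tg libraries and 3674 to 4125 in Control, and the 6 macrophage markers to 3944, against 1332 and 1782, and 1858 to 2580. Slow fibre markers summed to 70121 to 110597 in Ogg1Tg muscle and to 19085 to 57434 in Control muscle. The part of these differences in the results below was not tested. In such bulk samples, fewer cells of a type and less RNA per cell cannot be told apart. Results are therefore given with and without Ogg1Tg replicate 3.

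No import gene passed the test. Of 25 members tested, 0 were called at a limma adjusted p under 0.05, where 0.545% of all genes were called. The smallest adjusted p was 0.268, for Timm29. At an unadjusted p under 0.05 there were 3 members, 12.0% of those tested, against 11.0% of all genes. These were Timm8a1, which lay higher in Ogg1Tg muscle, and Timm29 and Tomm7, which lay lower. Values of the groups did not overlap for 5 members, 20.0% of those tested, against 18.3% of all genes. Of the 5, Timm8a1 was higher in Ogg1Tg muscle and Timm29, Timm22, Tomm7 and Tomm6os were lower, where 7.03% and 11.3% of all genes were higher and lower without overlap. With all 6 libraries, the share of members without overlap was thus near that of all genes. Of all genes, 0.395% were called higher and 0.150% lower. With edgeR on recovered reads 0 of 23 members were called, where 0.845% of all genes were, and 2 had an unadjusted p under 0.05, where 14.0% of all genes had. With DESeq2 0 of 26 members were called, but at least Tomm6 and Tomm20l had no adjusted p there and could not be called. Of the 17933 genes with a DESeq2 adjusted p, 3.08% were called. A DESeq2 unadjusted p under 0.05 was found for 3 members, and for 9.44% of the 25896 genes with a p. Without Ogg1Tg replicate 3, limma called 0 members and 1.86% of all genes, and edgeR 0 members and 2.04% of all genes. At an unadjusted p under 0.05 there were then 5 of 25 members with limma (20.0%, against 13.9% of all genes) and 9 of 24 with edgeR (37.5%, against 16.0%). Members without overlap between the groups numbered 13 of 25 without that library (52.0%, against 30.2% of all genes). Of these, 8 lay higher in Ogg1Tg muscle (Timm8a1, Timm10, Timm9, Timm17a, Timm44, Tomm22, Tomm40 and Tomm5), where 13.1% of all genes did. The other 5 lay lower (Timm29, Timm22, Timm10b, Tomm7 and Tomm6os), where 17.1% of all genes did. The counts of members thus depend on that library, and no test was made of the difference from all genes.

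**Figure D1:**
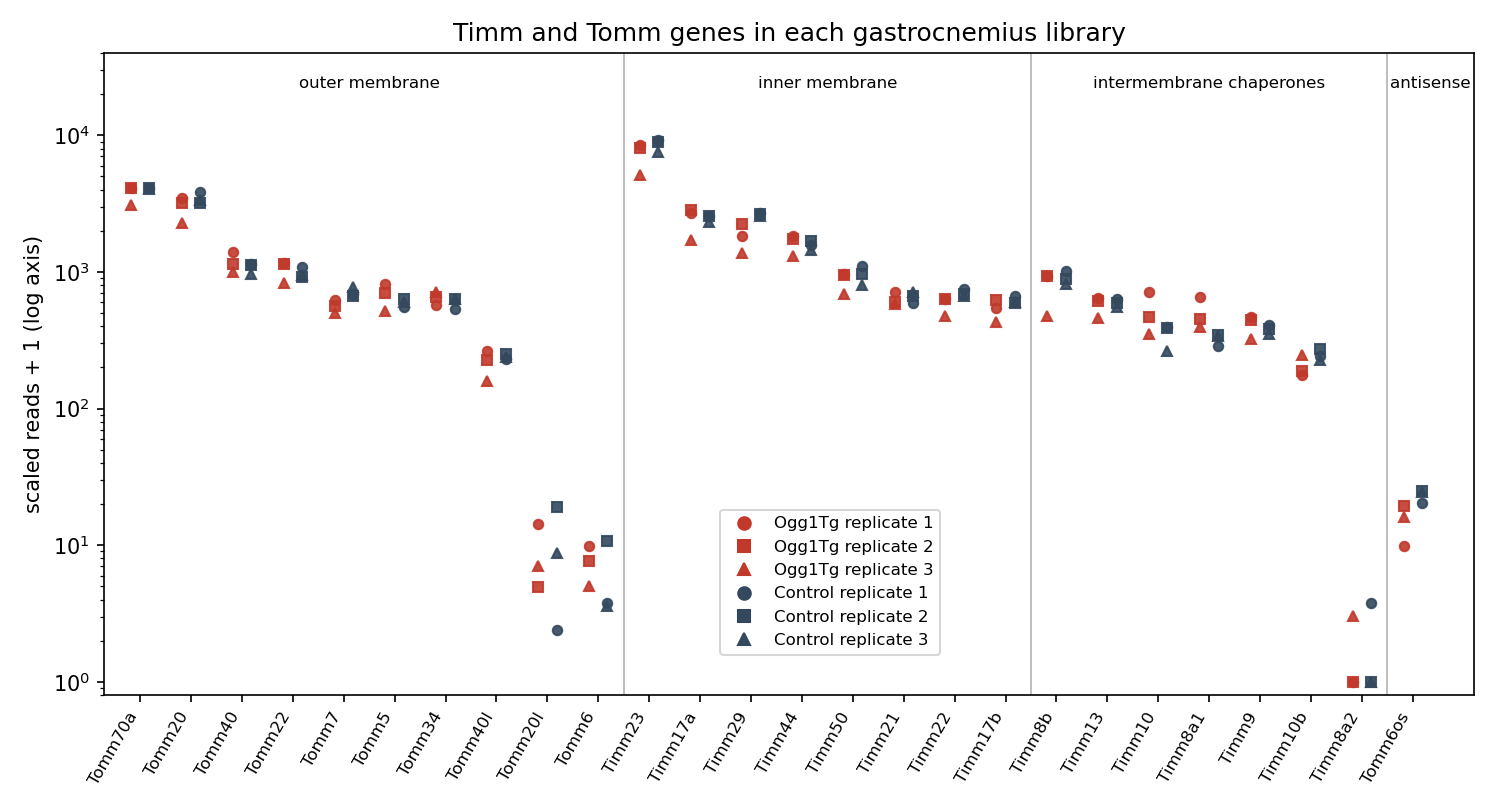
Scaled reads plus 1 (log axis) of the 26 Timm and Tomm genes, with 1 point per library, Ogg1Tg in red to the left of Control in dark blue and the replicate given by the shape. Timm23 is the highest at 5147 to 9240 scaled reads, and Tomm6, Tomm20l and Timm8a2 lie below 20 in every library.

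By compartment, inner membrane members lay mostly below Control with the deposited scaling and all 6 libraries, and the other classes were mixed. Outer membrane members had a median log2 fold change of 0.08 over 10 genes, with 6 above 0. Without Tomm6 and Tomm20l, which had few reads, it was -0.04 (-0.035), with 4 above and 4 below 0. With those genes kept, it was also below 0 without Ogg1Tg replicate 1 (-0.11) or without Control replicate 1 (-0.05). Its sign thus rests on those genes and on single libraries. Inner membrane members had a median of -0.19 over 8 genes, with 7 below 0. Its sign also turned with 2 settings, to 0.06 (0.057) when libraries were scaled to reads in named genes and to 0.02 (0.016) with edgeR without Ogg1Tg replicate 3. The 6 tested intermembrane chaperones had a median of 0.01, with 3 above and 3 below 0. The chaperone median was below 0 in several other settings. Among them were quantile normalization (-0.02) and the fits without Ogg1Tg replicate 1 (-0.08) or Ogg1Tg replicate 2 (-0.05). Over all genes tested the median was -0.03, and 52.8% lay below 0. Without Ogg1Tg replicate 3 the medians were 0.11, -0.03 and 0.17, and members above 0 numbered 8 of 10, 3 of 8 and 5 of 6. Without that library 55.5% of all genes lay below 0.

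Ogg1Tg replicate 3 was low for most members, 22 of 25 lying below the Control mean there, against 8 and 10 in Ogg1Tg replicates 1 and 2. Against the Control mean, the inner membrane median was 0.01, -0.04 and -0.53 in Ogg1Tg replicates 1, 2 and 3, with 8 of 8 members below 0 in the last. The outer membrane median was 0.18, 0.05 and -0.23, and that of the intermembrane chaperones 0.20, 0.14 and -0.13. In Control libraries, each of which is itself part of that mean, the 3 medians stayed between -0.12 and 0.10. As a share of all reads in named genes, the 25 members together held 0.0540%, 0.0476% and 0.0507% in Ogg1Tg muscle and 0.0476%, 0.0490% and 0.0467% in Control muscle, so on that scale replicate 3 was not low. Scaling each library to its reads in named genes moved the median of all genes to 0.22. Relative to it, the class medians were 0.09 for the outer membrane, -0.16 for the inner membrane and 0.04 for the chaperones, against 0.11, -0.16 and 0.04 with the deposited scaling.

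Ratios between the classes within a library do not depend on its scaling. Reads of intermembrane chaperones per read of inner membrane members were 0.202, 0.175 and 0.192 in Ogg1Tg muscle, against 0.156, 0.153 and 0.153 in Control muscle, so the groups did not overlap. Leaving out Timm8a1 and Timm10, a choice made after their values were seen, the ratios were 0.125, 0.123 and 0.128 in Ogg1Tg muscle and 0.120, 0.114 and 0.117 in Control muscle. The groups lay closer together but still did not overlap. Outer membrane reads per inner membrane read were 0.703, 0.666 and 0.774 in Ogg1Tg muscle and 0.634, 0.616 and 0.698 in Control muscle, and these overlapped. Chaperone reads per outer membrane read were 0.288, 0.264 and 0.247 in Ogg1Tg muscle and 0.246, 0.248 and 0.220 in Control muscle, which also overlapped. These ratios are weighted by the most abundant members, for the inner membrane Timm23, whose reads cannot be assigned to 1 locus with certainty. Unweighted, the median log2 difference from the Control mean was higher for outer than inner membrane members by 0.17, 0.09 and 0.30 in Ogg1Tg libraries, against -0.13, 0.04 and 0.07 in Control libraries, which did not overlap. For chaperones against inner membrane members the difference was 0.20, 0.18 and 0.41 in Ogg1Tg libraries and 0.03, 0.03 and -0.03 in Control libraries, also without overlap. The outer membrane median takes in Tomm6 and Tomm20l, which had few reads, and the difference without them was not computed. Each Control library is part of the Control mean it is set against. This draws Control values toward 0 and makes a lack of overlap easier to reach. Ratios and differences are given as a description with no test, and how often other sets of genes would not overlap was not examined.

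**Figure D2:**
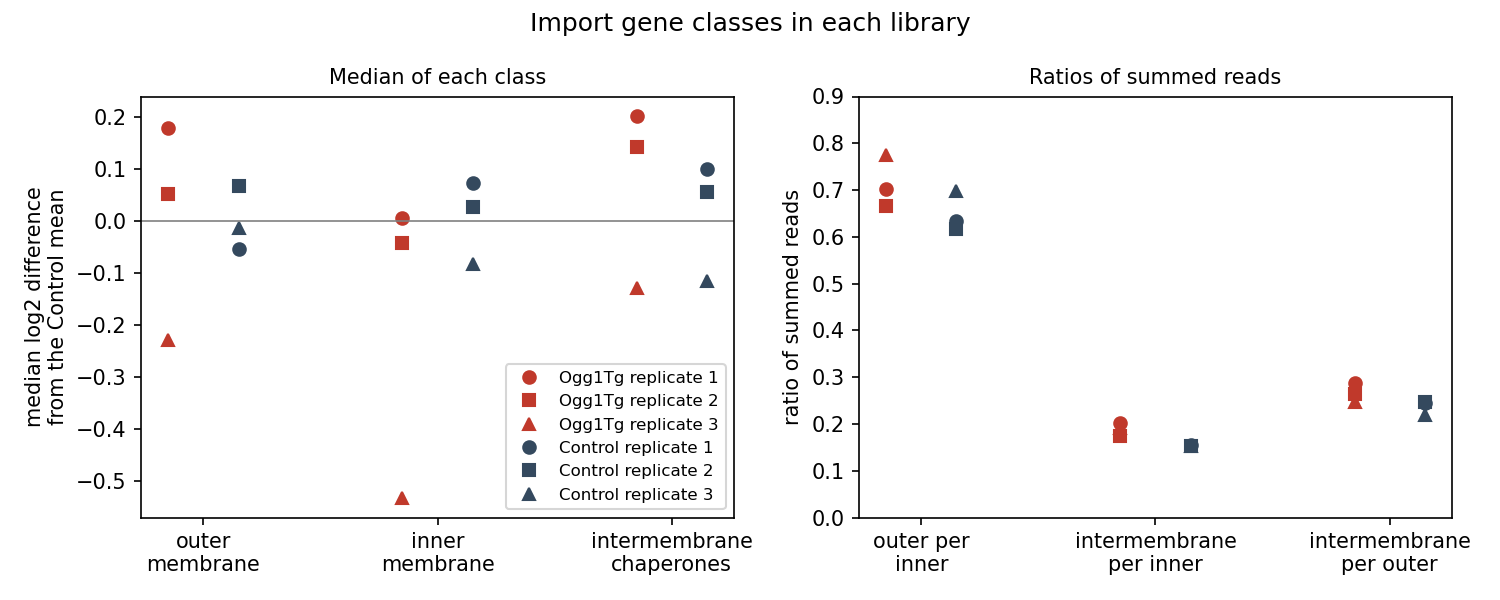
Left, median log2 difference of each class from the Control mean in each library; right, ratios of summed reads between classes, with Ogg1Tg in red to the left of Control in dark blue. Ogg1Tg replicate 3 has the lowest median in each class (-0.53 for the inner membrane), and the chaperone to inner membrane ratio is 0.175 or more in Ogg1Tg and 0.156 or less in Control libraries.

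Among the receptors of the outer membrane the levels of the groups overlapped. Tomm70a, the receptor for carrier precursors delivered by cytosolic chaperones, measured 4107, 4094 and 3085 scaled reads in Ogg1Tg muscle, against 4115, 4083 and 4053 in Control muscle. The first Ogg1Tg libraries lay within 1 SD of Control mice for this gene, whose Control SD was only 30.9, and replicate 3 lay below all others. Its log2 fold change was -0.13 ± 0.14 (SE), with a 95% interval from -0.45 to 0.19, and 0.01 without replicate 3. Tomm20, the receptor for presequences, measured 3467, 3217 and 2269 in Ogg1Tg muscle, against 3815, 3212 and 3383 in Control muscle. Tomm22, the central receptor that organises the complex, measured 1154, 1147 and 826 in Ogg1Tg muscle, against 1094, 922 and 955 in Control muscle. Both genes had their lowest value in Ogg1Tg replicate 3, and neither passed (limma adjusted p = 0.652 and 0.914).

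Neither the pore nor its small subunits passed the test. Tomm40, the beta-barrel pore, measured 1400, 1150 and 999.9 scaled reads in Ogg1Tg muscle, against 1136, 1118 and 971 in Control muscle, with a log2 fold change of 0.13 ± 0.15 (SE), and -0.0001 without Ogg1Tg replicate 1. Tomm5, a small subunit of the complex, measured 812, 695 and 514 in Ogg1Tg muscle, against 549, 628 and 596 in Control muscle. Here the first 2 Ogg1Tg libraries lay above every Control library and the third below all of them. Tomm7, another small subunit, which is also known for holding the kinase PINK1 at the outer membrane, measured 626, 564 and 503 in Ogg1Tg muscle, against 685, 664 and 774 in Control muscle. All 3 Ogg1Tg values lay below all Control values, with a log2 fold change of -0.33 ± 0.14 (SE), and the gene did not pass (limma adjusted p = 0.446). The log2 fold change was -0.25 without Ogg1Tg replicate 3 and -0.08 when libraries were scaled to reads in named genes. Tomm34, named with the outer membrane but known as a cytosolic co-chaperone, measured 571, 649.5 and 710 in Ogg1Tg muscle, against 537, 634 and 630.4 in Control muscle. It was the outer membrane gene in which Ogg1Tg replicate 3 was highest.

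Tomm6, the remaining small subunit, was nearly absent from these counts. It had 8, 5 and 4 reads in Ogg1Tg muscle, against 2, 7 and 2 in Control muscle, although the other small subunits had 396 to 731 reads in each library. In the GENCODE M21 annotation of mm10, Tomm6 lies on the minus strand of chromosome 17 from 47686646 to 47688386, and 84.2% of its exon bases are also exon of another gene. The widest overlap, 859 bases, is with Gm21981, a gene on the same strand that reads through it, and Tomm6os and Usp49 overlap it on the other strand. Gm21981 itself measured 5.55, 6.61 and 5.03 scaled reads in Ogg1Tg muscle, against 5.55, 4.20 and 3.92 in Control muscle. Whether the deposited counting left out reads that fall in more than 1 gene was not tested, and the counts of Tomm6 are no measure of its expression relative to the other subunits. Tomm6os had 8, 14 and 15 reads in Ogg1Tg muscle and 14, 17 and 18 in Control muscle. Its scaled values were 8.89, 18.5 and 15.1 in Ogg1Tg muscle, against 19.4, 23.8 and 23.5 in Control muscle, so the groups did not overlap, and it did not pass (limma adjusted p = 0.637). Of its exon bases 51.3% are shared with other genes.

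The inner membrane channel and most subunits around it had their lowest value in Ogg1Tg replicate 3. Timm23, the channel of the presequence pathway, measured 8468, 8031 and 5147 scaled reads in Ogg1Tg muscle, against 9240 (9239.98), 8924 and 7527 in Control muscle. Its log2 fold change was -0.28 ± 0.20 (SE), and -0.05 without Ogg1Tg replicate 3 (limma adjusted p = 0.653 with all 6 libraries). Timm50, the receptor that meets presequences as they leave the outer membrane, measured 959.7, 947 and 689 in Ogg1Tg muscle, against 1099.7, 965 and 795 in Control muscle. Timm21, which links the inner and outer translocases, measured 712, 599 and 580.4 in Ogg1Tg muscle, against 592, 666 and 710.0 in Control muscle. Timm44, the anchor of the import motor, measured 1826, 1734 and 1317 in Ogg1Tg muscle, against 1560.1, 1683 and 1453 in Control muscle. For Timm44 the first 2 Ogg1Tg libraries lay above all Control libraries and the third below them. None of these 4 genes passed.

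Timm23 shares sequence with other annotated genes. Of its transcript words of 50 bases, 57.5% occur in transcripts of other genes, mostly Gm10273 on chromosome 10. Gm10273 measured 4522, 4102 and 2647 scaled reads in Ogg1Tg muscle, against 5010.4, 4596 and 3713 in Control muscle. Its reads were 0.534, 0.511 and 0.514 of those of Timm23 in Ogg1Tg libraries and 0.542, 0.515 and 0.493 in Control libraries. The ratio between these entries thus varied little while their levels did, and reads of the group cannot be assigned to 1 locus with certainty.

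Of the carrier translocase TIM22, Timm29 and Timm22 had lower values in every Ogg1Tg library than in any Control library, and neither passed. Timm29, known in human cells as a subunit of that complex, measured 1818, 2234 and 1380.1 scaled reads in Ogg1Tg muscle, against 2707, 2659 and 2546 in Control muscle. Each Ogg1Tg value lay below each Control value. The log2 fold change was -0.57 ± 0.17 (SE), a fold of 0.674, with a 95% interval from -0.96 to -0.18, and the gene did not pass (limma adjusted p = 0.268). Timm22, the channel-forming subunit, measured 629.8, 636 and 473 in Ogg1Tg muscle, against 753, 684 and 666 in Control muscle. These groups did not overlap either, and the log2 fold change was -0.28 ± 0.16 (SE, limma adjusted p = 0.554). Without Ogg1Tg replicate 3 the log2 fold changes were -0.39 for Timm29 and -0.15 for Timm22, and the remaining Ogg1Tg values still lay below all Control values. With libraries scaled to reads in named genes they were -0.32 for Timm29 and -0.04 for Timm22. Timm29 lies on chromosome 9 from 21592722 to 21595970, and 3.38% of its exon bases overlap Yipf2. Timm10b, a small Tim bound to the same complex, measured 176, 188 and 244 in Ogg1Tg muscle, against 243, 271 and 226 in Control muscle, and these overlapped. Of the exon bases of Timm10b 22.1% are shared with other genes.

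Timm8a1 and Timm10 had the largest positive fold changes of the members. Timm8a1, the mouse counterpart of the human deafness-dystonia gene TIMM8A, is a chaperone that works with Timm13. It measured 659, 454 and 393 scaled reads in Ogg1Tg muscle, against 287, 345 and 337 in Control muscle. All Ogg1Tg values lay above all Control values. The log2 fold change was 0.60 ± 0.21 (SE), a fold of 1.52, with a 95% interval from 0.13 to 1.08, and the gene did not pass (limma adjusted p = 0.332, and 0.0764 without Ogg1Tg replicate 3 with a log2 fold change of 0.76). Without Ogg1Tg replicate 1, its highest library, the log2 fold change was 0.39. Timm10, a subunit of the hexamer that escorts carrier precursors, measured 706, 467 and 353 in Ogg1Tg muscle, against 397, 387 and 262 in Control muscle. The lowest Ogg1Tg library lay within the Control range. Its log2 fold change was 0.51 ± 0.27 (SE), with a 95% interval from -0.10 to 1.12 (limma adjusted p = 0.530). It was 0.74 without Ogg1Tg replicate 3, 0.24 without Ogg1Tg replicate 1 and 0.32 without Control replicate 3.

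Timm8a1 also shares sequence with a copy. It lies on chromosome X from 134537256 to 134541865, and 41.0% of its 50-base words occur in Gm9797, a transcribed processed pseudogene on chromosome 10. Gm9797 measured 567, 384 and 353 scaled reads in Ogg1Tg muscle, against 268, 297 and 321 in Control muscle, again without overlap. Its reads were 0.860, 0.845 and 0.898 of those of Timm8a1 in Ogg1Tg libraries and 0.932, 0.858 and 0.953 in Control libraries. How reads of the shared sequence were assigned was not tested, so the values of Timm8a1 are uncertain as a measure of that locus alone. Timm10, on chromosome 2 from 84826997 to 84830213, shared 0 of its exon bases and 0 of its 50-base words with other genes.

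Timm9 and Timm13, partners of these chaperones, and Timm8b, a paralogue of Timm8a1, had fold changes of smaller size than Timm8a1 and Timm10. Timm9, which forms the hexamer with Timm10, measured 464, 446 and 319.9 scaled reads in Ogg1Tg muscle, against 410.5, 379 and 352 in Control muscle. Timm13, the partner of the Timm8 proteins, measured 641, 614 and 458 in Ogg1Tg muscle, against 629.6, 596 and 551 in Control muscle. Timm8b measured 929, 930.0 and 477 in Ogg1Tg muscle, against 1021, 887 and 821 in Control muscle. In all 3 genes Ogg1Tg replicate 3 was lowest, and their log2 fold changes were 0.09, -0.07 and -0.28. Without it they were 0.26, 0.09 and 0.04. Timm8a2 had 2 reads in Ogg1Tg replicate 3 and 2 in Control replicate 1, 0 in the other libraries, and was the member that missed the filter. Both groups were under a floor of 3 reads over the group, so no fold is given.

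Promoter windows of 300 bases, from 250 before to 50 after the RefSeq start on GRCm38.p6, were found for 23 of the 26 genes, in 25 windows. They are shown for the members with the largest positive fold changes, for the TIM22 subunit with the lowest, and for Timm8b, whose window held 3 of the motifs searched. Timm8a1 is at chrX:134541621-134541920 on the minus strand, Timm10 at chr2:84826771-84827070, Timm8b at chr9:50603651-50603950 and Timm29 at chr9:21592472-21592771, these 3 on the plus strand. Capitals mark matches to any motif searched.
Timm8a1: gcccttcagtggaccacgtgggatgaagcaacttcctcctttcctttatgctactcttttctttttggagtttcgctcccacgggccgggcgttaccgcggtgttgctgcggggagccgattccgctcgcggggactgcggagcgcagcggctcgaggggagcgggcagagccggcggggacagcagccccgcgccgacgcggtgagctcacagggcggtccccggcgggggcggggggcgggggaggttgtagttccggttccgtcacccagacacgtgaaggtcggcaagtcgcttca
Timm10: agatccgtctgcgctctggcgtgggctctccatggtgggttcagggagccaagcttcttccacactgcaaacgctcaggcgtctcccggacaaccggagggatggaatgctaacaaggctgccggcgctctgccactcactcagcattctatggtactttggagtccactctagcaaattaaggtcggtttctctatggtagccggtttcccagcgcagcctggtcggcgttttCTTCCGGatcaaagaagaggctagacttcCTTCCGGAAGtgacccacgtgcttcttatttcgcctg
Timm8b: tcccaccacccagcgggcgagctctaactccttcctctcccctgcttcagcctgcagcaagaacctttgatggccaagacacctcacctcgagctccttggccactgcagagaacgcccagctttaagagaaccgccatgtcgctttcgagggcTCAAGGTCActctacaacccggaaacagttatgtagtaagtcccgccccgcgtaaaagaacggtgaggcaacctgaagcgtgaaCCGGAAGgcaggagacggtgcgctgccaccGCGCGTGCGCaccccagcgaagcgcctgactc
Timm29: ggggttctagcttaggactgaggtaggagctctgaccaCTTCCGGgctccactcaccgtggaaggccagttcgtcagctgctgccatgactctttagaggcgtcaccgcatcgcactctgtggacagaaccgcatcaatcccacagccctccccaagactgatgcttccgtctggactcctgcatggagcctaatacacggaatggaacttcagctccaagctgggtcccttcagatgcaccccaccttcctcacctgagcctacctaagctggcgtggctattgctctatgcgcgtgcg
The motifs, searched on both strands, were the ETS core CCGGAAG, bound by the GABP family, the NRF1 motif (GCGC, any base, then TGCGC), the estrogen-related receptor element TCAAGGTCA, and the composite site of ATF4 with C/EBP proteins, TGATGNAA. GABP and NRF1 are known regulators of nuclear genes for mitochondrial proteins, and ATF4 is the main factor of the integrated stress response. The ETS core was in 10 of 25 windows (40.0%), in 9 genes, with Tomm34 counted in separate windows, against 8.86% of 32851 windows over all genes. The windows over all genes were not limited to genes expressed in this muscle, and the difference was not tested. It was in Timm10, where copies lay 16 bases before and 13 and 16 bases after the start and the last 2 overlapped, in Timm29 at 212 bases before the start, and in Timm10b, Timm23, Timm8a2, Timm8b, Tomm22, Tomm34 and Tomm70a. The NRF1 motif was in the windows of Timm8b and Tomm20, against 4.60% of all windows, and the estrogen-related receptor element in Timm8b alone, against 0.423%. The ATF4 motif was in 0 of 25 windows, against 3.97% of all windows, and 25 windows are too few to read this as a lack. Genes with and without the ETS core both included members above and below Control.

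**Figure D3:**
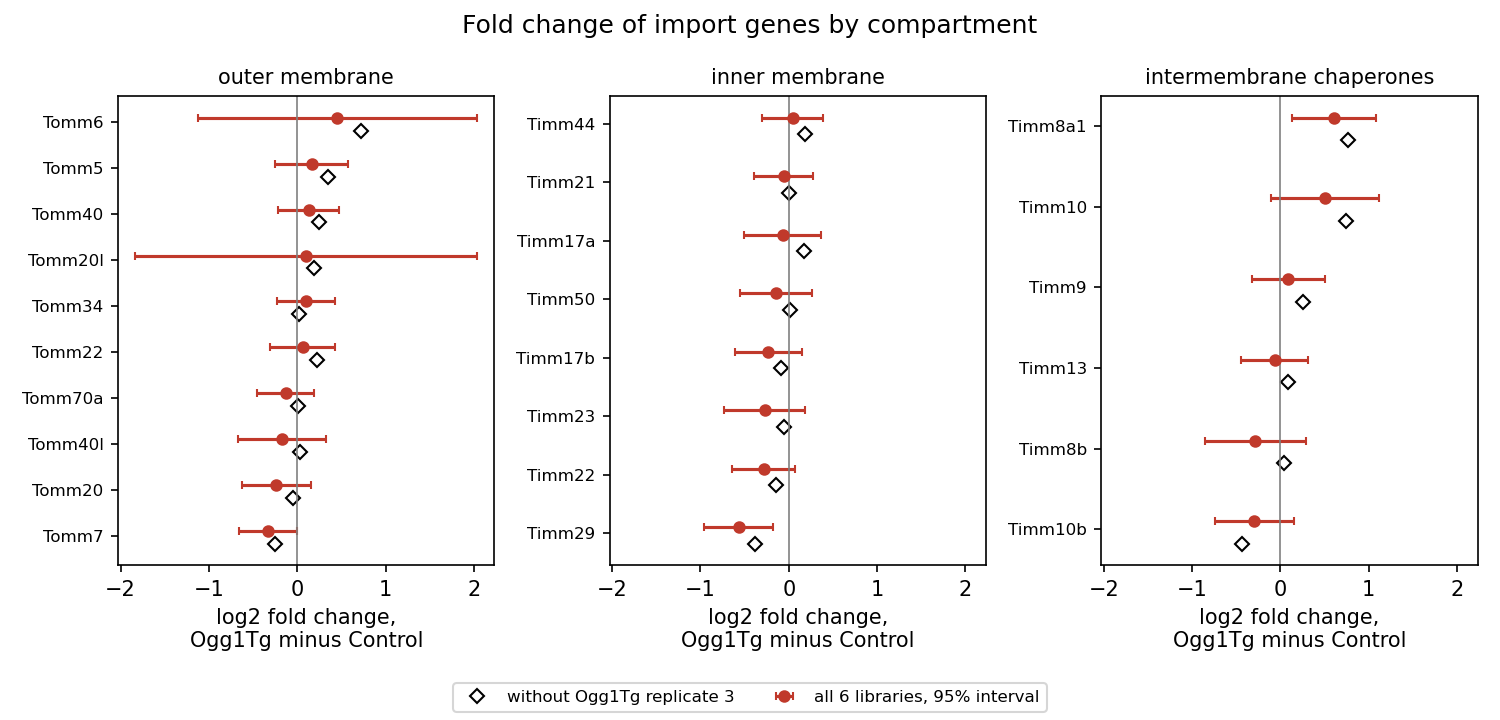
Log2 fold change of each tested import gene, Ogg1Tg minus Control, by compartment; red points with bars are the limma estimate from all 6 libraries with its 95% interval, and open diamonds the estimate without Ogg1Tg replicate 3. Timm8a1 (0.60), Timm29 (-0.57) and Tomm7 (-0.33) are the members whose interval leaves out 0, before any adjustment for the number of genes.

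Shares of paralogues were compared within libraries, per kilobase of annotated exon. Timm8a1 made up 20.5%, 15.1% and 23.1% of Timm8a1 plus Timm8b in Ogg1Tg muscle, against 9.30%, 12.4% and 13.0% in Control muscle, with no overlap. Timm8a1 shares sequence with Gm9797, and 15.6% of the exon bases of Timm8b are shared with Nkapd1 on the opposite strand. The share of Timm8a1 is therefore uncertain, and how often shares of other gene pairs would not overlap was not examined. Timm17a, a channel subunit of the TIM23 complex, measured 2720.3, 2844 and 1707 scaled reads in Ogg1Tg muscle, against 2556, 2558 and 2323 in Control muscle. Its X-linked paralogue Timm17b measured 541, 627 and 428 in Ogg1Tg muscle, against 663, 587 and 604 in Control muscle. Timm17a was 62.0%, 59.5% and 56.4% of the pair in Ogg1Tg muscle and 55.5%, 58.5% and 55.5% in Control muscle, and these overlapped. The difference was 2.78 percentage points, and 1.45 without Ogg1Tg replicate 1, 4.23 without Ogg1Tg replicate 3 and 1.74 with no division by length.

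Tomm40 was 85.9%, 85.2% and 87.7% of Tomm40 plus Tomm40l in Ogg1Tg muscle and 85.0%, 83.5% and 82.4% in Control muscle, with no overlap. Tomm40l, a paralogue of the pore, measured 262, 228 and 159 scaled reads in Ogg1Tg muscle, against 229, 252 and 236 in Control muscle. Of its exon bases 64.3% are shared with Nr1i3 on the opposite strand, and nothing at hand gives the strand setting of the counting, so this share is uncertain. Tomm20l, a paralogue of the Tomm20 receptor, had 12, 3 and 6 reads in Ogg1Tg muscle, against 1, 13 and 6 in Control muscle. Tomm20 was 96.3% to 99.8% of the pair in all libraries.

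**Figure D4:**
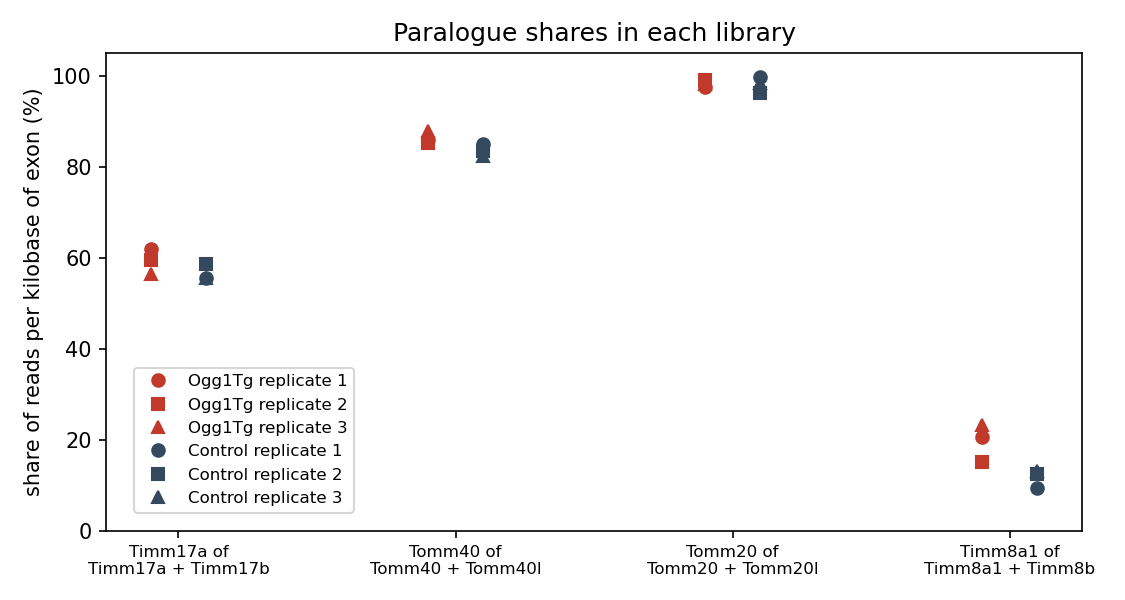
Share of the first paralogue in each pair in each library, from reads per kilobase of annotated exon (percent), with Ogg1Tg in red to the left of Control in dark blue. Timm8a1 and Tomm40 have shares without overlap between groups (15.1% to 23.1% against 9.30% to 13.0% for Timm8a1), while those of Timm17a and Tomm20 overlap. The shares of Timm8a1 and Tomm40 are uncertain, because members of these pairs share exon bases or sequence with other genes.

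Per kilobase of the principal transcript, mean levels spanned a wide range. Timm23 had the highest level at 6151 scaled reads per kilobase in Ogg1Tg muscle, against 7301 in Control muscle, with the uncertainty about its copies given above. Timm8b followed at 1503 in Ogg1Tg and 1756 in Control muscle. Tomm5 was at 1054 in Ogg1Tg and 925 in Control muscle. Timm44 came next at 908 in Ogg1Tg and 874 in Control muscle. Timm22, the TIM22 channel, was near the low end at 206 in Ogg1Tg and 249 in Control muscle. Tomm22, Tomm70a and Tomm20 were at 664, 631 and 609 in Ogg1Tg muscle and at 631, 685 and 708 in Control muscle, and their order differed between the groups. Timm10b and Tomm40l were far lower, at 61.9 and 45.9 in Ogg1Tg muscle and 75.3 and 50.7 in Control muscle.

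Other genes of the import pathway gave the same count. Of 22 partners (motor subunits, processing peptidases, the sorting and assembly machinery, the disulfide relay and insertases), 22 were tested and 0 passed, with 7 above and 15 below 0 and a median log2 fold change of -0.09, or 0.02 without Ogg1Tg replicate 3. Over all genes 0.545% passed, 52.8% lay below 0 and the median was -0.03. Groups did not overlap for 2 of the 22 (9.09%), against 18.3% of all genes, and these were Hspa9 and Gfer. Hspa9, the mitochondrial Hsp70 that drives the import motor, measured 35056, 24295 and 22319 scaled reads in Ogg1Tg muscle, against 16043, 18240.1 and 17358 in Control muscle. All Ogg1Tg values lay above all Control values, with a log2 fold change of 0.63 ± 0.20 (SE), and the gene did not pass (limma adjusted p = 0.281). Without Ogg1Tg replicate 3 the log2 fold change of Hspa9 was 0.76. Gfer, the sulfhydryl oxidase that keeps the disulfide relay for small Tims running, measured 1379.6, 1759 and 956 in Ogg1Tg muscle, against 2133, 1818 and 1932 in Control muscle. The groups did not overlap, with a log2 fold change of -0.56 ± 0.21 (SE, limma adjusted p = 0.359), and -0.33 without replicate 3. Immp1l, a subunit of the inner membrane peptidase, measured 1013, 1219.7 and 782 in Ogg1Tg muscle, against 1363, 1347 and 1125 in Control muscle, which overlapped (limma adjusted p = 0.493). Its log2 fold change was -0.365, and -0.196 without Ogg1Tg replicate 3.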

How the data were processed

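Total RNA of gastrocnemius from 3 Ogg1Tg and 3 Control mice went into NuGen Ovation Universal libraries, per the labels' protocols. Trimmomatic, SAMtools, HTSeq and mm10 are named in the submitters' processing notes. For the aligner, annotation, strand setting and scaling step, the sources used here give nothing. The deposited values are a signal, gene counts divided by 1 factor per library, although the file names call them FPKM. Divided by 1 step per library, 100% of values came within 0.01 of whole reads. The step of Ogg1Tg replicate 3 was 1.006, so near 1 that values of the fewest reads tell less there. Larger values in that library were not whole before the division, such as 5147.202 scaled reads for Timm23, which came to 5117 reads. Entries without a name, 1824 in number and 2.38% to 3.54% of reads, were left out. Depth in named genes was 45189860 to 56126407 reads.

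Values were taken as log2(value + 1). Genes with a mean of at least 1 entered limma 3.58.1 under R 4.3.3 (eBayes with a variance trend, two-sided, Benjamini-Hochberg adjustment over 23312 genes, called under 0.05). The unit differed from FPKM named in the files, and the linear model was kept because the signal is not a raw count. Tests with edgeR 4.0.16 and DESeq2 1.42.0 used recovered reads. The script was tested on simulated data. Members and lists were chosen with earlier results of these data known. By rule, values per library were due for called members, the 3 of each class with the smallest p, the 2 with the highest mean and the paralogue pairs, and the remaining members are printed too. Of the partners, called genes (0) and the 3 with the smallest p are named. Gm21981, Gm10273 and Gm9797 were chosen after the overlaps were seen. Exon lengths, overlaps and 50-base words come from GENCODE M21 (mm10), and promoters from RefSeq. The labels do not say whether mice shared litters, so p-values measure the spread between these 6 samples, which may in part be technical.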

Additional observations from a re-analysis of the deposited data

How the results depend on the processing

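The count of 0 called import members was the same under all 18 alternatives, with the smallest adjusted p at 0.0603 (Timm8a1, edgeR without Ogg1Tg replicate 3). The count over all genes, 127, was 46 without a variance trend, 552 with DESeq2, 362 with edgeR without Ogg1Tg replicate 3, and 35 to 425 with 1 library left out (62, 194 and 425 without Ogg1Tg replicates 1, 2 and 3, and 43, 42 and 35 without Control replicates 1, 2 and 3). With the replicate block it was 102, with 0 members called. Deviations of same-numbered libraries from their group means correlated at -0.053, -0.005 and 0.031 across genes. Libraries with different numbers gave -0.072 to 0.072. No link between same-numbered libraries was seen, but with 3 libraries per group this cannot exclude a pairing. With 1 library left out the class medians ran from -0.11 to 0.11 (outer), from -0.29 to -0.03 (inner) and from -0.08 to 0.17 (chaperones). With libraries scaled to reads in named genes, added after the data were seen, the outer, inner and chaperone medians were 0.31, 0.06 and 0.26, and with edgeR without Ogg1Tg replicate 3 they were 0.06, 0.02 and 0.21, so the inner median turned sign in both. Leaving out Tomm6 and Tomm20l, also added later, turned the outer median to -0.04.

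Of 25 tested members 11 kept their sign in all fits, Timm8a1 (0.39 to 0.85), Timm10 (0.24 to 0.80), Timm29 (-0.74 to -0.32), Timm22 (-0.36 to -0.04) and Tomm7 (-0.41 to -0.08) among them, and 14 changed sign in at least 1, in 39 of 447 values, none called. The cause was not tested. The log2 fold changes that changed sign were, with that scaling, Timm13 0.18, Timm17a 0.18, Timm17b 0.013, Timm21 0.19, Timm50 0.10, Tomm20 0.008, Tomm40l 0.071 and Tomm70a 0.12. With edgeR they were Timm13 0.026, Timm17a 0.041 and Timm21 0.03, and without Ogg1Tg replicate 3 also Timm13 0.13, Timm17a 0.21, Timm21 0.043, Timm50 0.043, Timm8b 0.074, Tomm20l -0.002, Tomm40l 0.079 and Tomm70a 0.048. With DESeq2 they were Timm17a 0.016 and Tomm20l -0.17, and with quantile normalization Timm17a 0.021 and Tomm20l -0.055. With 1 library left out the ranges were Timm13 -0.16 to 0.085, Timm17a -0.20 to 0.17, Timm21 -0.15 to 0.0002, Timm44 -0.048 to 0.19, Timm50 -0.27 to 0.013, Timm8b -0.44 to 0.037, Timm9 -0.009 to 0.26, Tomm20l -0.71 to 0.79, Tomm22 -0.021 to 0.22, Tomm40 -0.0001 to 0.24, Tomm40l -0.33 to 0.033 and Tomm70a -0.20 to 0.006. Tomm6, Tomm20l and Timm8a2 rest on fewer than 25 reads per group, so differences in them were not detectable at this depth.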
